A study of Mus musculus with 36 samples.

Results

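T helper 2 (Th2) cells that lacked AGO1, AGO3 and AGO4 were compared with wild-type Th2 cells after 7 days in culture, by counting mature microRNAs (miRNAs). The libraries were those whose titles place them at day 7 of Th2 culture with the AGO134 or the WT genotype, which gave 4 AGO134 knockout (KO) and 4 wild-type (WT) libraries, 8 of the 36 in the series. KO cells carried the genotype AGO134-/- and WT cells were littermates per the series text, all on the C57BL/6J strain. Both came from spleen, where naive CD4+ T cells were sorted as CD4+ TCRb+ cells, activated and polarized towards Th2. The other libraries of the same experiment, from naive KO and WT cells (4 and 4) and from day 14 KO and WT cells (3 and 3), shared the fit and served to test whether an effect at day 7 differed from that at another stage. The labels do not say whether replicates came from separate animals, and p-values therefore cover only the spread between samples. miRNA counts do not measure the Ago genes, and the genotype labels were therefore not checked.

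Argonaute proteins hold a mature miRNA and use its seed, the stretch near the 5′ end, to find target mRNAs. A miRNA is cut from a hairpin as a duplex, of which an Argonaute keeps the guide strand and discards the passenger strand, and unbound small RNAs are short-lived. Mammals have several Argonautes, AGO2 being the one with strong slicing activity, and AGO2 remains intact by genotype in these KO cells. In activated T helper cells miRNAs such as miR-155, miR-182 and the miR-23-27-24 clusters act on cytokine production, survival and proliferation.

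Mature sequences were taken from RefSeq annotation of GRCm38.p6, in which 50 of the 55 miRNAs that changed at day 7 had an entry. The first set is shown because the strands of each of these hairpins changed relative to each other. Capitals mark the seed, bases 2 to 8.
miR-30e-5p: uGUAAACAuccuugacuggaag
miR-30e-3p: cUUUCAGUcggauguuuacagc
miR-15b-5p: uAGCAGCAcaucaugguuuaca
miR-15b-3p: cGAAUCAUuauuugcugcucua
miR-7a-5p: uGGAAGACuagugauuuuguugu
miR-7a-1-3p: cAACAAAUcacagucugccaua
miR-130b-3p: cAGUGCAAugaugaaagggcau
miR-130b-5p: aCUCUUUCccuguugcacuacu
miR-186-5p: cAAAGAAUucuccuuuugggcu
miR-186-3p: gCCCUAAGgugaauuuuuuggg
miR-30e lies in an intron of Nfyc (GRCm38, minus strand, 3p arm at chr4:120772618-120772639), miR-15b in an intron of Smc4 (3p arm at chr3:69009813-69009834, plus strand) and miR-7a-1 in an intron of Hnrnpk (3p arm at chr13:58392800-58392821, minus strand). miR-130b lies in an intron of 2610318N02Rik (5p arm at chr16:17124109-17124130, minus strand) and miR-186 in an intron of Zranb2 (3p arm at chr3:157544324-157544345, plus strand). Host genes are from GENCODE vM21 annotation of GRCm38.

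The second set is shown because its members carry the main changes in level, again with the seed in capitals.
miR-27a-3p: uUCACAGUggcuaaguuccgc
miR-27b-3p: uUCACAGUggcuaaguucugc
miR-23a-3p: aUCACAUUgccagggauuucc
miR-21a-5p: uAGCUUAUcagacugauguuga
miR-155-5p: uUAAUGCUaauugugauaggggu
miR-182-5p: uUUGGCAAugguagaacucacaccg
let-7i-5p: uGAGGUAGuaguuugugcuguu
let-7g-5p: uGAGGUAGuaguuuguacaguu
let-7f-2-3p: cUAUACAGucuacugucuuuc
miR-877-5p: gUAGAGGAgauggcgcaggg
miR-455-3p: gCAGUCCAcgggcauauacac
miR-27a-3p and miR-27b-3p share the seed UCACAGU, and let-7i-5p and let-7g-5p share GAGGUAG, whereas let-7f-2-3p is the passenger strand of a let-7 hairpin and carries another seed. miR-877-5p (chr17:35960795-35960814, minus strand) lies in an intron of Abcf1 and is known as a mirtron, a hairpin made by splicing in place of Drosha cleavage. miR-21a-5p (chr11:86584120-86584141, minus strand) overlaps an exon of Vmp1.

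The KO libraries were shallower than the WT libraries and their counts were less evenly spread. A KO library held 125803 to 190976 miRNA counts and a WT library 215215 to 273724, which makes 3 counts, the most that a count of 0 is compatible with, equal to 16.2 to 26.6 counts per 1000000 miRNA counts (CPM, after TMM scaling) in KO and 9.01 to 12.5 CPM in WT. Such limits cover counting error only. A group of 9 entries named STD, which the labels do not explain, took 40.5% to 45.4% of all counts in KO and 35.7% to 37.7% in WT. The log2 ratio of miRNA to STD counts was 0.21, 0.22, 0.25 and -0.07 in KO against 0.41, 0.47, 0.54 and 0.47 in WT, a difference of -0.32 (two-sided exact permutation test, p = 0.0286, the smallest that 4 against 4 allows). With every library thinned to 125803 counts, a KO library detected 557.5 ± 19.4 miRNAs and a WT library 606.2 ± 12.6 (SD, n = 4 each; exact permutation p = 0.0286). KO replicate 4 had the fewest counts of the 8 libraries. Of the cell markers, all 5 T cell miRNAs were detected, with a summed level of 55240 to 60100 CPM in KO and 45570 to 48620 CPM in WT. The 3 myeloid markers summed to 0 CPM in KO and 0 to 3.09 CPM in WT, with miR-223-3p and miR-223-5p at 0 counts in all 8 libraries. The 4 red cell and platelet markers summed to 81.6 to 131 CPM in KO and 66.6 to 105 CPM in WT, most of it miR-486a-5p, with miR-451a at 0 counts in all 8 libraries. The 7 endothelial and stromal markers summed to 679 to 1001 CPM in KO and 882 to 1054 CPM in WT, and the 10 epithelial, liver and muscle markers to 1555 to 1773 CPM in KO and 1441 to 1836 CPM in WT. Their part in the results was not tested.

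At day 7 the KO cells held, with TMM scaling, more of a group of abundant guide strands and less of a group of scarcer miRNAs, of which 11 of 22 were minor arms, against 113 of all 382 tested (29.6%). The 11 include let-7a-1-3p and let-7c-2-3p, which have the same mature sequence and nearly the same counts. edgeR's quasi-likelihood test, with TMM scaling and Benjamini-Hochberg adjustment over the 382 of 1966 named miRNAs that passed the low-count filter, called 55 of them at an adjusted p under 0.05, which is 14.4% of those tested. KO cells were higher for 33 of these (8.64%) and lower for 22 (5.76%). The changes were small, as 6 of the 55 reached a 2-fold difference. The KO and WT libraries did not overlap for 31 of the 33 higher and 18 of the 22 lower miRNAs, against 76 of all 382 (19.9%). That is a description, since the calls were made on the same libraries. The 33 higher miRNAs together took 47.9% ± 2.34 of miRNA counts in KO and 41.5% ± 0.558 in WT, and the 22 lower ones 1.02% ± 0.274 in KO and 2.16% ± 0.118 in WT (SD, n = 4 each; a description, since the calls chose the members). These counts rest in part on single libraries. Without KO replicate 4 edgeR called 24, and without WT replicate 2, 3 or 4 it called 34, 36 and 36. KO replicate 4 was the most extreme KO library for 27 of the 33 higher and 20 of the 22 lower miRNAs, and 19 of the 55 (10 higher, 9 lower) were called with each of the 8 libraries left out in turn.

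The direction of the higher group depended on the scaling between libraries. TMM placed the median miRNA at a log2 fold change of -0.02, library size alone at -0.31 and scaling to the STD entries at -0.63. edgeR called 4 higher and 43 lower with library size, 1 higher and 128 lower with STD scaling, and 14 higher and 22 lower with loess offsets against abundance. All 22 lower miRNAs were called lower with DESeq2 size factors, library size and STD scaling, and 17 of them with loess offsets. Library size and STD scaling moved values downwards, so that lower miRNAs had to stay lower there, and those calls add no support. Of the 33 higher miRNAs, 28 were called higher with DESeq2 size factors, 10 with loess offsets, 4 with library size and 1, miR-7072-5p, with STD scaling, under which 25 of the 33 had a negative value. Every higher call below is therefore a rise relative to the other miRNAs of the same library.

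**Figure D1:**
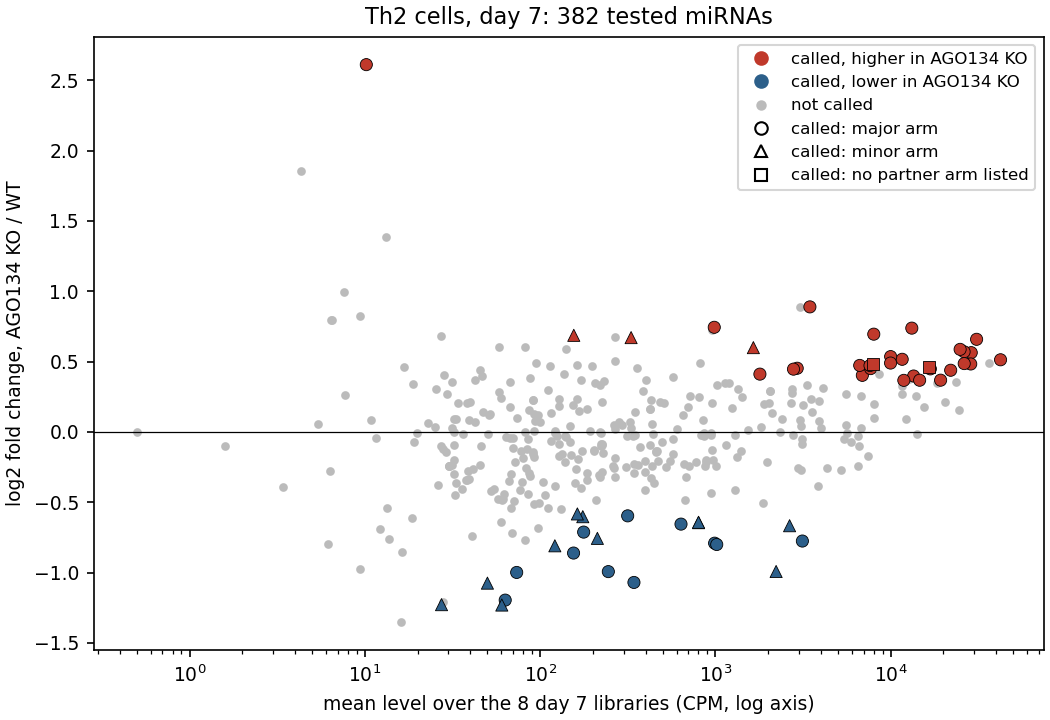
Log2 fold change of AGO134 KO over WT at day 7 (vertical axis, TMM scaling) against the mean level over the 8 libraries (horizontal axis, CPM, log scale) for 382 miRNAs, with called miRNAs coloured by direction and shaped by arm (1 miRNA with 0 counts in these libraries is drawn at 0.5 CPM). The 33 called higher in KO lie mainly at high levels, with a median of 9995 CPM, and the 22 called lower mainly at low levels, with a median of 229 CPM.

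Abundance and fold change were related across miRNAs. Of the 29 miRNAs with a mean of at least 10000 CPM, 16 were called higher in KO and 0 lower, and their median log2 fold change was 0.40. The 76 between 1000 and 10000 CPM had a median of 0.12, the 146 between 100 and 1000 CPM one of -0.09, and the 131 below 100 CPM one of -0.10. Called higher were 13 of the 76, 3 of the 146 and 1 of the 131. The share called over all miRNAs, set beside counts of lists below, does not allow for this trend. The highest and lowest classes had medians of 0.09 and -0.40 with library size and of -0.21 and -0.71 with STD scaling. One factor per library moves all classes about alike, so that these scalings do not test the gap between classes. Loess offsets, which are fitted to remove any such trend, gave 0.05 and -0.03. Spearman's correlation between mean level and fold change was 0.29 over 382 miRNAs, which share the same 8 libraries and their depth. In the same direction, the 10 most abundant miRNAs took 33.4% ± 1.93 of miRNA counts in KO and 29.0% ± 1.08 in WT (SD, n = 4 each; exact permutation p = 0.0286).

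**Figure D2:**
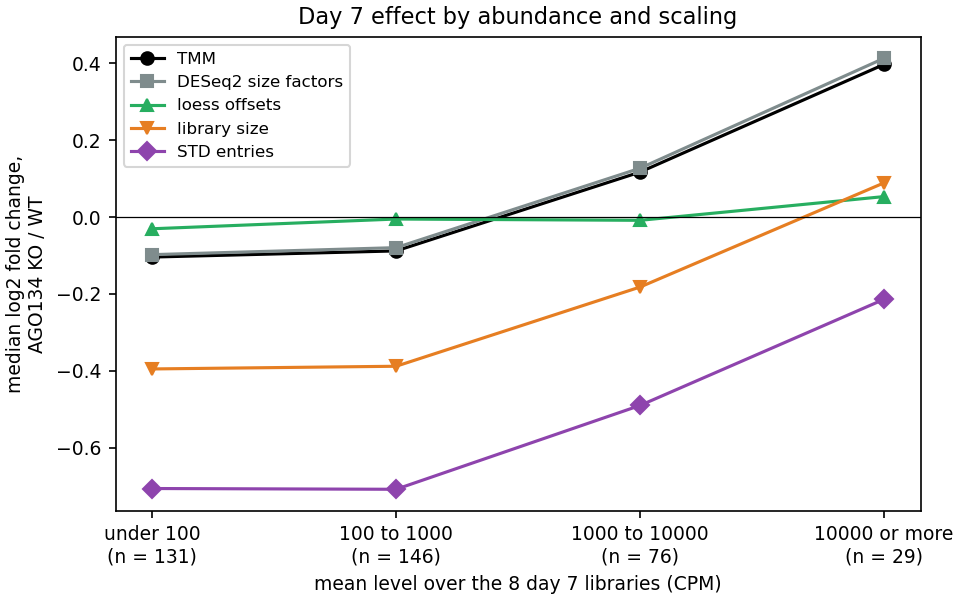
Median log2 fold change of AGO134 KO over WT at day 7 (vertical axis) in 4 classes of mean level (horizontal axis, CPM, with the number of miRNAs), with a line for each of 5 scalings. The lines that use one factor per library run about parallel by construction, the loess line is nearly flat, and the most abundant class is negative with the STD entries.

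One group among the higher miRNAs was the miR-23-27-24 clusters, which are encoded on chromosomes 8 and 13 and restrain Th2 cytokine production, miR-24 and miR-27 by acting on the IL-4 pathway. edgeR called 5 of the 11 tested members higher and 0 lower, against 8.64% higher over all miRNAs, and the median of the 11 was 0.37, or -0.25 with STD scaling. The 5 called members were the 3p guide strands, all above 1000 CPM, and the 6 members not called were the 5p strands, all below 1000 CPM. Between 1000 and 10000 CPM 13 of 76 miRNAs were called higher, and at 10000 CPM or more 16 of 29. miR-27a-3p stood at 9361, 8652, 9238 and 12368 CPM in KO against 5308, 5679, 6546 and 6914 CPM in WT. Every KO library lay above every WT library (log2 fold change 0.69, SE 0.11, edgeR adjusted p = 0.000477), and the value was 0.05 and not called with STD scaling. miR-23a-3p stood at 11222, 11641, 11708 and 12749 CPM in KO against 8030, 8420, 7904 and 8290 CPM in WT. These groups did not overlap either (0.54, SE 0.10, edgeR adjusted p = 0.000998). From the chromosome 13 cluster, miR-27b-3p stood at 29383, 31307, 29222 and 32684 CPM in KO against 24643, 20957, 20473 and 21491 CPM in WT (0.49, SE 0.11, edgeR adjusted p = 0.00525). miR-23b-3p stood at 7951, 9257, 8795 and 9422 CPM in KO against 6406, 6629, 6417 and 6090 CPM in WT (0.47, SE 0.12, edgeR adjusted p = 0.0077). miR-24-3p, encoded in both clusters, stood at 16365, 15245, 16511 and 17788 CPM in KO against 13933, 12222, 12365 and 12577 CPM in WT (0.37, SE 0.12, edgeR adjusted p = 0.0346). No KO library of these 3 overlapped the WT range, and the call of miR-24-3p was lost in 6 of the 8 fits that left out a library (all but those without KO replicate 2 or WT replicate 1). The sum of miR-27a-3p and miR-27b-3p over their shared seed was 0.48 higher (SE 0.13, edgeR adjusted p = 0.0154 over 244 seed families, of which 14.8% were called). With STD scaling miR-23a-3p, miR-23b-3p, miR-24-3p, miR-27b-3p and the seed sum had negative values.

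Activation-induced miRNAs and regulators of Th2 cells also held calls. Of 14 tested regulators of Th2 differentiation edgeR called 9 higher and 0 lower (median 0.47, or -0.15 with STD scaling). Of 21 miRNAs known to be induced by T cell activation it called 7 higher and 0 lower (median 0.35, or -0.30 with STD scaling). Over all miRNAs 8.64% were called higher. The lists overlap and are not separate evidence. The 9 regulators include every called member of the miR-23-27-24 clusters except miR-23b-3p. They also include the 7 activation calls except miR-132-5p and miR-22-3p. All 9 had a mean above 1000 CPM, where the share called higher was larger. That share was 13 of 76 miRNAs between 1000 and 10000 CPM and 16 of 29 at 10000 CPM or more. miR-21a-5p, which is induced on activation and favours Th2 over Th1 responses, stood at 33133, 34749, 38126 and 45380 CPM in KO against 22129, 23130, 26177 and 24473 CPM in WT. The groups did not overlap (log2 fold change 0.66, SE 0.13, edgeR adjusted p = 0.000998), and the value with STD scaling was 0.02. miR-155-5p, made from the Bic transcript and required for full T helper responses, stood at 12332, 13424, 12836 and 16182 CPM in KO against 9437, 9063, 9772 and 10009 CPM in WT (0.52, SE 0.12, edgeR adjusted p = 0.00621). miR-182-5p, which is induced by interleukin 2 and represses Foxo1, stood at 28893, 31144, 31982 and 33314 CPM in KO against 24377, 20501, 19791 and 19797 CPM in WT (0.57, SE 0.12, edgeR adjusted p = 0.00166). Neither pair of groups overlapped, and WT replicate 1 was the highest WT library of miR-182-5p. Its cluster mates miR-183-5p and miR-96-5p were not called (0.21 and 0.35). miR-146a-5p, which damps NF-kB signalling through Traf6 and Irak1, stood at 9067, 9566, 8291 and 8562 CPM in KO against 5370, 6619, 7150 and 6836 CPM in WT (0.45, SE 0.12, edgeR adjusted p = 0.0121). Its groups did not overlap, but the call was lost without KO replicate 1 or WT replicate 1. With STD scaling miR-155-5p, miR-182-5p and miR-146a-5p had negative values.

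Members of the same lists that follow hypoxia or CREB signalling were more variable. miR-210-3p, the hypoxia-induced miRNA, stood at 3793, 2886, 4282 and 7053 CPM in KO against 1478, 2658, 2671 and 2864 CPM in WT (log2 fold change 0.89, SE 0.26, edgeR adjusted p = 0.0191). The lowest KO library was close to the highest WT library, and the call was lost without KO replicate 4 (0.59) or without WT replicate 1. miR-132-5p, from the CREB-driven cluster of miR-132 and miR-212, stood at 288, 367, 367 and 621 CPM in KO against 204, 233, 270 and 293 CPM in WT (0.67, SE 0.20, edgeR adjusted p = 0.0191). Those groups overlapped, and the other 3 members of the cluster were not called, miR-132-3p at 0.33 and miR-212-3p at 0.50. The call of miR-132-5p was lost without KO replicate 4, WT replicate 1 or WT replicate 2.

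The remaining higher miRNAs with small p-values came from several loci. miR-30d-5p stood at 16310, 14435, 14792 and 20477 CPM in KO against 11027, 10360, 9243 and 8942 CPM in WT. Its groups did not overlap (log2 fold change 0.74, SE 0.14, edgeR adjusted p = 0.00107; 0.10 and not called with STD scaling). miR-191-5p stood at 27168, 28518, 29660 and 34219 CPM in KO against 21559, 20201, 19328 and 18519 CPM in WT (0.59, SE 0.14, edgeR adjusted p = 0.00621). miR-3963, which has no partner arm in the files, stood at 8419, 8101, 8236 and 12128 CPM in KO against 6273, 6798, 6711 and 6608 CPM in WT (0.48, SE 0.12, edgeR adjusted p = 0.00995). These libraries also separated by genotype, with KO replicate 4 of miR-3963 far above the other 3, and the call of miR-3963 was lost without it (0.32). From the miR-17-92 clusters and their paralogs, which promote lymphocyte proliferation, edgeR called 4 of 18 tested members higher and 0 lower, against 8.64% higher over all miRNAs (median of the members 0.23, or -0.08 with library size and -0.40 with STD scaling). By locus, 3 of 5 tested strands were called at the paralog in Mcm7, 1 of 9 at the miR-17-92 locus on chromosome 14 and 0 of 7 at the X chromosome paralog. Of the 4 called, miR-93-5p, from the paralog in Mcm7, stood at 17715, 19439, 20629 and 19926 CPM in KO against 15656, 14207, 13461 and 13648 CPM in WT (0.45, SE 0.11, edgeR adjusted p = 0.00621). miR-17-3p, the passenger strand of miR-17 by its known role, stood at 2928, 2929, 3176 and 3850 CPM in KO against 2115, 2591, 2379 and 2349 CPM in WT (0.45, SE 0.12, edgeR adjusted p = 0.0112), and its call was lost without KO replicate 4. The groups of both miRNAs were apart. miR-191-5p, miR-3963, miR-93-5p and miR-17-3p had negative values with STD scaling.

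**Figure D3:**
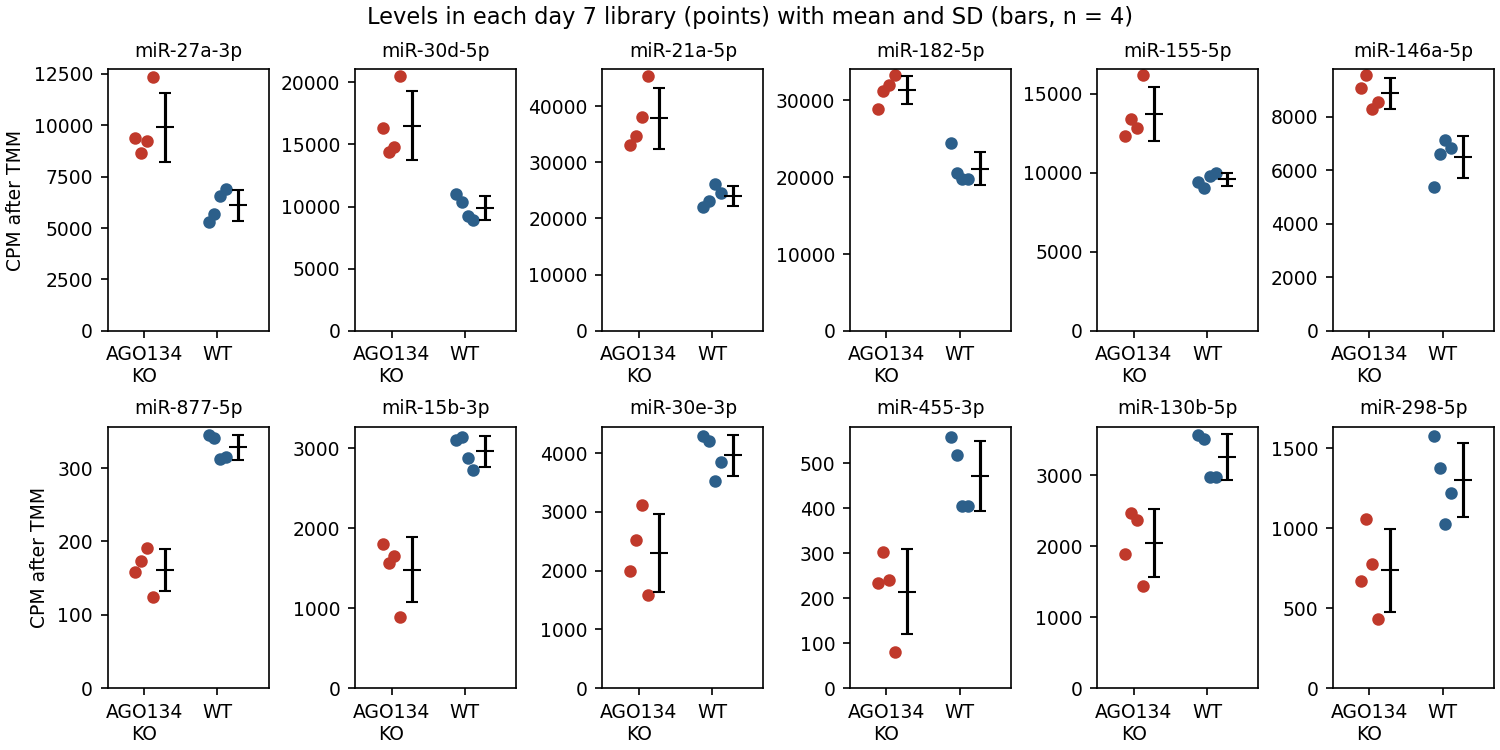
Level in each day 7 library (points; vertical axes, CPM after TMM scaling, from 0) of 6 miRNAs called higher (top row) and 6 called lower (bottom row) in AGO134 KO, with KO left of WT and bars for mean and SD (n = 4). The KO and WT points do not overlap in 11 of the panels, and those of miR-298-5p do.

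Of the 12 core T cell miRNAs, edgeR called 6 higher (let-7g-5p, miR-27a-3p, miR-155-5p, miR-24-3p, miR-21a-5p and miR-146a-5p) and 0 lower, with a median of 0.36, or -0.25 with STD scaling. Over all miRNAs 8.64% were called higher, and all of these 6 but let-7g-5p are also among the Th2 regulators above. The 12 core miRNAs all had a mean above 1000 CPM, where the share called higher was larger. It was 13 of 76 miRNAs between 1000 and 10000 CPM and 16 of 29 at 10000 CPM or more. let-7g-5p stood at 24779, 21266, 26106 and 29082 CPM in KO against 21134, 17400, 17580 and 18593 CPM in WT (log2 fold change 0.44, SE 0.15, edgeR adjusted p = 0.0387). The lowest KO library was just above the highest WT library, and the call was lost in the same 6 fits as that of miR-24-3p. The other 6 core members were not called. miR-150-5p, a repressor of the transcription factor Myb, stood at 26945, 27675, 27250 and 23440 CPM in KO against 21867, 20839, 19361 and 20158 CPM in WT, without overlap (0.36, edgeR adjusted p = 0.121). miR-181a-5p, which tunes T cell receptor sensitivity, stood at 5899, 6582, 5969 and 5376 CPM in KO against 7818, 6833, 6582 and 6978 CPM in WT (-0.24, edgeR adjusted p = 0.381). miR-29a-3p, which limits T-bet and interferon gamma, stood at 6378, 5523, 5914 and 5164 CPM in KO against 5357, 5991, 6774 and 6099 CPM in WT (-0.08, edgeR adjusted p = 0.799). The last of these overlapped throughout. miR-17-5p (0.35), miR-142a-3p (0.30) and miR-142a-5p (0.20) also overlapped between KO and WT.

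let-7 miRNAs, which repress growth genes and are controlled by Lin28, had calls among both guide and passenger strands. edgeR called 4 of 10 tested guide strands higher and 0 lower, against 8.64% higher over all miRNAs. The called strands all had a mean of at least 10000 CPM, a class in which 16 of 29 miRNAs were called higher. The 4 were miR-98-5p, let-7i-5p, let-7d-5p and let-7g-5p (0.37 to 0.56), and the median of the 10 was 0.37, or -0.25 with STD scaling and near 0 with loess offsets. The calls of let-7d-5p and miR-98-5p were lost in those 6 fits as well, and that of let-7i-5p without KO replicate 1 or 4 or WT replicate 2 or 3. Members of this family can share reads, and the sum over the guide seed GAGGUAG, 225130 ± 31015 CPM in KO and 173130 ± 13596 CPM in WT (SD, n = 4 each), was not called (0.38, SE 0.19, edgeR adjusted p = 0.202). CPM of seed sums are relative to the counts of miRNAs with a sequence, and are not on the scale of single miRNAs. The passenger strand let-7f-2-3p stood at 87.1, 103, 110 and 44.4 CPM in KO against 150, 140, 186 and 151 CPM in WT. Its groups did not overlap (-0.81, SE 0.23, edgeR adjusted p = 0.0175), and the call was lost without KO replicate 4 or WT replicate 3. The passenger seed UAUACAA, shared by let-7a-1-3p, let-7c-2-3p and 3 other strands, summed to 1801, 1631, 1961 and 864 CPM in KO against 2132, 2669, 2888 and 2558 CPM in WT (-0.70, SE 0.18, edgeR adjusted p = 0.0102). KO replicate 4 was lowest there too. let-7a-1-3p and let-7c-2-3p have the same mature sequence and nearly the same counts, so that they are not separate measurements. The seed sum adds both, so that the same reads may enter it more than once. limma's test of the minor over the major arm called 0 of the 9 tested let-7 hairpins, with log2 changes of -1.37 to -0.28, adjusted p from 0.0855 to 0.853 and 4 of the 9 at an unadjusted p under 0.05.

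Among the lower miRNAs, miR-877-5p stood at 158, 173, 192 and 124 CPM in KO against 346, 341, 312 and 315 CPM in WT. Every KO library lay below every WT library (log2 fold change -0.99, SE 0.17, edgeR adjusted p = 0.000669). It was the called member among 7 tested Drosha-independent miRNAs, whose median was -0.24. miR-15b-3p, the minor arm of miR-15b, stood at 1807, 1562, 1654 and 887 CPM in KO against 3105, 3139, 2878 and 2732 CPM in WT, also without overlap (-0.99, SE 0.18, edgeR adjusted p = 0.000669). The other 9 tested members of the miR-15/16 clusters, which restrain the cell cycle, were not called (median of the 10, -0.04). miR-30e-3p, the more abundant arm of miR-30e in these libraries, stood at 2003, 2524, 3110 and 1579 CPM in KO against 4288, 4203, 3521 and 3852 CPM in WT (-0.78, SE 0.16, edgeR adjusted p = 0.00166). miR-130b-5p stood at 1888, 2470, 2371 and 1437 CPM in KO against 3563, 3509, 2980 and 2982 CPM in WT (-0.67, SE 0.14, edgeR adjusted p = 0.0028). Both miRNAs separated the genotypes, with KO replicate 4 the lowest library.

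A further 5 miRNAs were called lower under every alternative that gave a value. miR-455-3p stood at 234, 303, 241 and 79.8 CPM in KO against 558, 519, 406 and 404 CPM in WT (log2 fold change -1.07, SE 0.23, edgeR adjusted p = 0.0028). miR-328-3p stood at 468, 578, 416 and 515 CPM in KO against 845, 883, 730 and 657 CPM in WT (-0.66, SE 0.14, edgeR adjusted p = 0.0028). miR-3068-3p stood at 158, 162, 159 and 151 CPM in KO against 258, 268, 255 and 287 CPM in WT (-0.76, SE 0.18, edgeR adjusted p = 0.00621). None of these overlapped, and KO replicate 4 of miR-455-3p was the lowest library. miR-330-3p stood at 288, 238, 252 and 222 CPM in KO against 425, 360, 360 and 383 CPM in WT (-0.60, SE 0.15, edgeR adjusted p = 0.00847). miR-298-5p stood at 669, 1059, 778 and 435 CPM in KO against 1578, 1377, 1027 and 1219 CPM in WT (-0.80, SE 0.20, edgeR adjusted p = 0.00995). miR-330-3p did not overlap, whereas KO replicate 2 of miR-298-5p lay above WT replicate 3. Less abundant, miR-874-3p stood at 169, 75.7, 115 and 71.0 CPM in KO against 237, 242, 168 and 164 CPM in WT (-0.86, SE 0.25, edgeR adjusted p = 0.0187), and miR-301a-5p at 38.1, 37.8, 38.3 and 26.6 CPM in KO against 95.7, 89.2, 93.1 and 64.8 CPM in WT (-1.23, SE 0.35, edgeR adjusted p = 0.0175). miR-874-3p overlapped and miR-301a-5p did not. Both calls were lost without KO replicate 4, and that of miR-874-3p also without KO replicate 2, WT replicate 1 or WT replicate 2. The highest fold change among the 55 was that of miR-7072-5p, for which 12 counts in KO and 3 in WT give a depth-corrected ratio of 5.93 (exact 95% binomial interval 1.6 to 32.7, counting error only).

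A comparison of the arms of a hairpin within a library does not depend on scaling. Of 115 hairpins with a mean of at least 5 counts in each arm, limma called 5 (4.35%) at an adjusted p under 0.05, and the ratio of the minor to the major arm was lower in KO by value for 82 and higher for 33. The KO and WT libraries did not overlap for 27 hairpins (23.5%), and in 25 of these the minor arm was lower in KO. The library median of the log2 ratio was -3.14 ± 0.102 in KO and -2.98 ± 0.175 in WT (SD, n = 4 each; difference -0.17, two-sided exact permutation p = 0.2). KO libraries were shallower, and with all libraries thinned to equal depth the difference was -0.03 over 91 hairpins (exact permutation p = 0.514). Thinning was a single random draw and also changed which hairpins passed the count minimum. Without thinning, the 72 hairpins with a mean of at least 20 counts in both arms gave -0.13 (exact permutation p = 0.114). The counts by hairpin were not recomputed at equal depth.

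For miR-15b, whose 5p strand restrains cyclins and Bcl2, the log2 ratio of 3p to 5p was -3.07, -3.13, -3.07 and -3.92 in KO against -2.42, -2.26, -2.14 and -2.20 in WT. The difference was -1.04 (SE 0.20, limma adjusted p = 0.00207), while miR-15b-5p itself did not pass the test (-0.01). For miR-30e the ratio of 5p to 3p was -0.29, -0.63, -0.45 and 0.61 in KO against -1.93, -1.72, -1.31 and -1.45 in WT, a difference of 1.41 (SE 0.26, limma adjusted p = 0.00207). Here the arms moved in opposite directions, miR-30e-5p to 1988 ± 417 CPM in KO against 1306 ± 138 CPM in WT (SD, n = 4 each; 0.60, SE 0.18, edgeR adjusted p = 0.0248; -0.04 with STD scaling) and miR-30e-3p downwards as above. miR-7a-1 also had arms called in opposite directions, with miR-7a-5p at 1192, 713, 1002 and 2058 CPM in KO against 604, 730, 922 and 661 CPM in WT (0.74, SE 0.22, edgeR adjusted p = 0.0193). Its 3p arm stood at 125, 91.9, 159 and 151 CPM in KO against 179, 194, 189 and 216 CPM in WT (-0.58, SE 0.20, edgeR adjusted p = 0.0493). The 5p groups overlapped and the 3p groups did not. Of the 8 fits that left out a library, 5 lost the call of miR-30e-5p and of miR-7a-5p and 6 that of miR-7a-1-3p, KO replicate 4 and WT replicates 1 and 2 among them, whereas the 3p to 5p ratio was lower in KO by 1.25 (log2 difference -1.25, SE 0.25, limma adjusted p = 0.00207). The mature miR-7a-5p is also made from other loci, so that its count does not come from this hairpin alone. For miR-130b the ratio of 5p to 3p was -1.66, -1.16, -1.39 and -2.21 in KO against -0.57, -0.55, -0.68 and -0.76 in WT (difference -0.96, SE 0.20, limma adjusted p = 0.00312). For miR-186 the ratio of 3p to 5p rested on 22 counts of the 3p arm in KO and 85 in WT (difference -1.23, SE 0.33, limma adjusted p = 0.0293). The groups did not overlap for any of the 5 ratios. The calls of the first 4 were kept with each library left out in turn, and that of miR-186 was lost in 6 of 8 such fits.

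**Figure D4:**
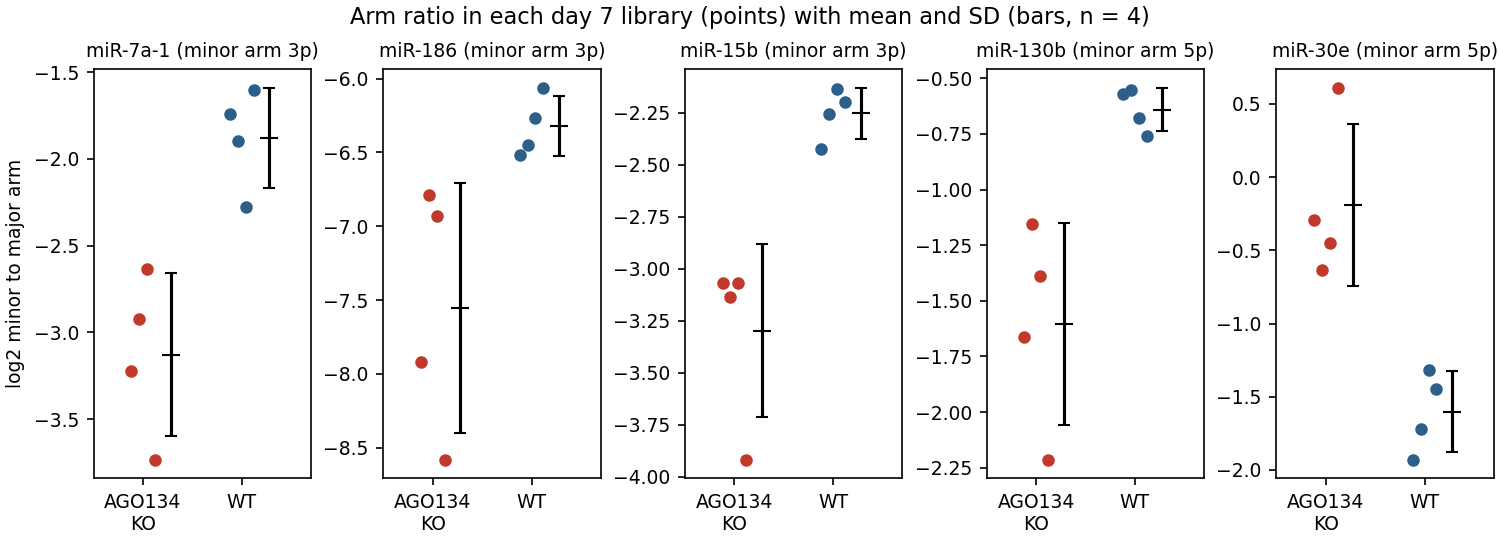
Log2 ratio of the minor to the major arm (vertical axes, differing between panels) in each day 7 library for the 5 called hairpins, with AGO134 KO left of WT, points for libraries and bars for mean and SD (n = 4). KO lies below WT for miR-7a-1, miR-186, miR-15b and miR-130b, and above WT for miR-30e.

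The same hairpins were then read at the other stages, in libraries whose ratios did not enter the day 7 differences. Those libraries did share the estimate of spread behind the day 7 SEs and p-values, so that the stages are not independent tests. Naive KO replicate 4 held 64264 miRNA counts, against 148455 to 243748 in the other naive libraries, and its 10 most abundant miRNAs took 52.8% of them. No naive library was left out in turn, so that its part in the naive values was not tested. In naive cells the minor to major ratio of miR-130b (-0.95), miR-7a-1 (-1.17) and miR-30e (1.25) differed in the same direction as at day 7 (limma adjusted p = 0.00215 for each, among 28 of 115 hairpins called, 24.3%). That of miR-15b was 0.16 in naive cells and -0.15 at day 14, and that of miR-186 was -0.31 and -0.37, none of them called. At day 14 limma called 1 of the 115 hairpins (0.87%), none of these 5, with miR-30e at 0.76 and miR-130b at -0.38.

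Effects on single miRNAs were compared between stages with the test of the difference itself. The shallow naive KO replicate 4 is part of every naive value and was not left out. Of the 33 miRNAs higher at day 7, 14 were also called higher in naive cells (8.12% of all 382 were) and 7 at day 14 (8.9% were). Of the 22 lower ones, 10 were called lower in naive cells (10.2% of all were) and 8 at day 14 (10.7% were). Called the same way at all 3 stages were let-7g-5p, miR-140-3p, miR-30d-5p and miR-3963 among the higher and miR-1934-5p, miR-3068-3p, miR-328-3p, miR-330-3p and miR-877-5p among the lower. The knockout effect at day 7 differed from that in naive cells for 9 miRNAs, 7 with a more positive (1.83% of 382) and 2 with a more negative value (0.524%), or for 3 with library size and 1 with STD scaling. It differed from that at day 14 for 46, 25 more positive (6.54%) and 21 more negative (5.5%), or for 15 with STD scaling.

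miR-182-5p was lower in naive KO cells and higher in day 7 KO cells with TMM scaling, though its day 7 value with STD scaling was -0.046. In naive cells it stood at 3982, 3612, 4743 and 3532 CPM in KO against 4775, 5386, 4458 and 5821 CPM in WT (log2 fold change -0.36, edgeR adjusted p = 0.0385), and the day 7 effect exceeded the naive effect by 0.93 (SE 0.17, edgeR adjusted p = 0.00226). miR-15b-3p stood at 1269, 1344, 1760 and 900 CPM in naive KO against 1017, 1038, 1384 and 1187 CPM in naive WT, which overlapped. Its day 7 effect was below the naive effect by 1.22 (difference -1.22, edgeR adjusted p = 0.00643) and differed from that at day 14 by -1.38 (edgeR adjusted p = 0.000815). miR-148a-3p, which favours survival of Th1 cells, was higher in KO at day 7 (0.47, edgeR adjusted p = 0.017; -0.15 with STD scaling, and not called in 5 of the 8 fits that left out a library) but stood at 7122, 6371 and 8035 CPM in KO against 10616, 10498 and 10798 CPM in WT at day 14. These effects differed by 1.04 (SE 0.20, edgeR adjusted p = 0.000735). miR-132-5p behaved likewise, at 132, 169 and 261 CPM in KO against 491, 453 and 446 CPM in WT at day 14 (difference of effects 1.95, SE 0.31, edgeR adjusted p = 7.11e-05). miR-27a-3p stood at 7841, 7580 and 7358 CPM in KO against 8348, 7396 and 8085 CPM in WT at day 14, and its day 7 effect was larger by 0.76 (edgeR adjusted p = 0.0033). miR-181a-5p, not called at day 7, was higher in KO in naive cells (0.62) and at day 14 (0.69), and its day 7 effect lay below both (differences -0.86 and -0.93, edgeR adjusted p = 0.031 and 0.0102). The differences of miR-182-5p from naive cells and of miR-132-5p from day 14 were called under every alternative run for them. With STD scaling the other differences given here kept their sign and lost their call, except that of miR-181a-5p from day 14, which lost it with DESeq2 size factors. That of miR-181a-5p from naive cells was also lost without KO replicate 4 or WT replicate 1, 3 or 4.

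**Figure D5:**
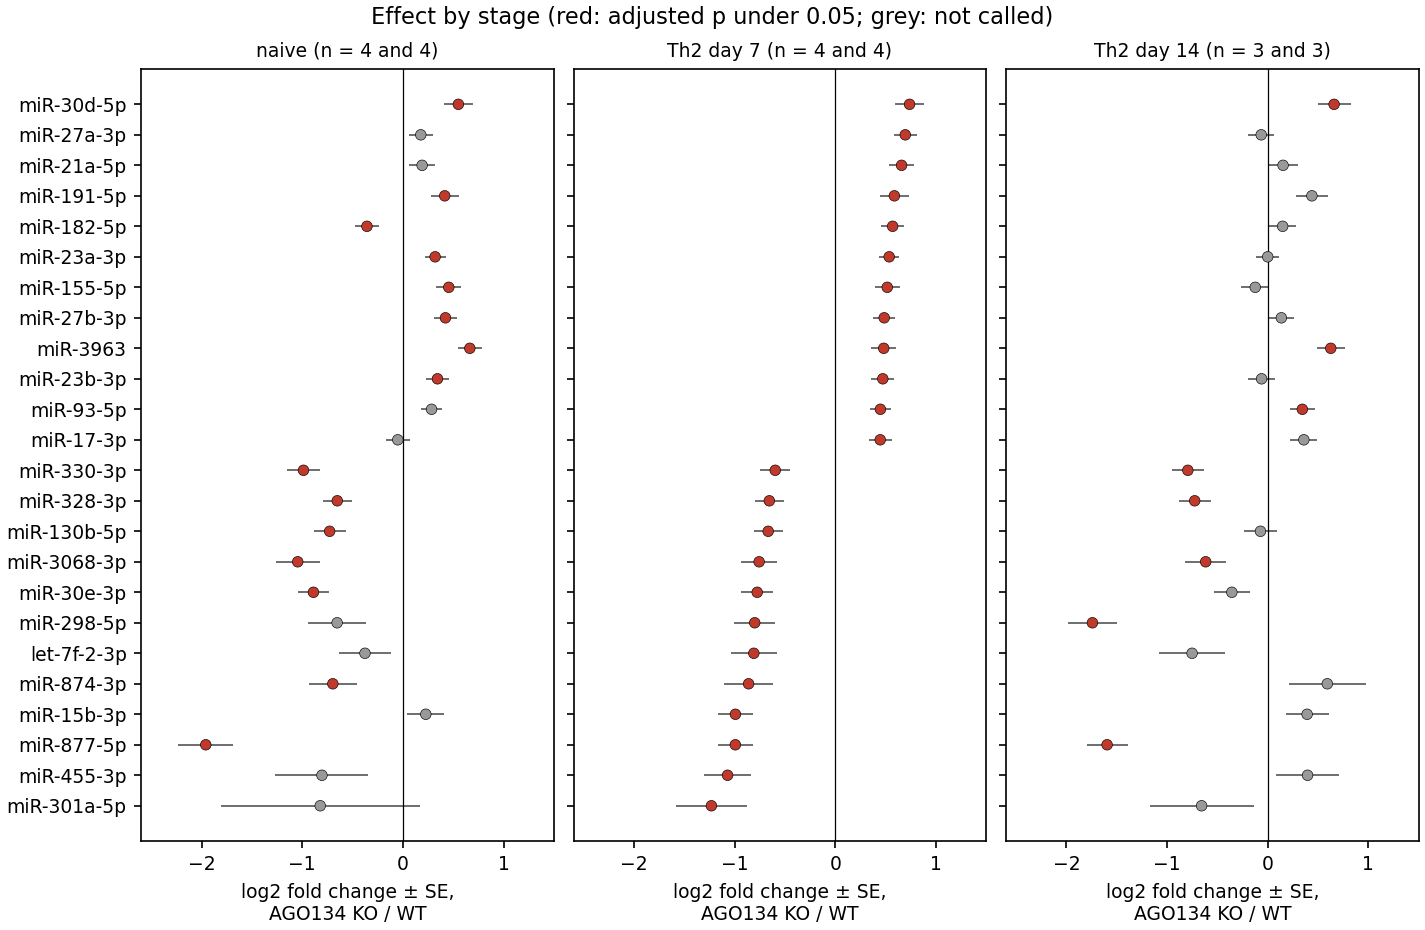
Log2 fold change of AGO134 KO over WT, SE (horizontal axes, TMM scaling) in naive cells, at day 7 and at day 14 for the 12 higher and 12 lower miRNAs with the smallest p at day 7 (vertical axis), with red points for an adjusted p under 0.05. miR-182-5p lies left of 0 in naive cells, and miR-877-5p lies left of 0 at all 3 stages.

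The remaining families were described by the same counts. Within the miR-30 family 2 of 5 members were called higher by edgeR, miR-30d-5p and miR-30e-5p (median 0.38, or -0.21 with STD scaling), and of 17 miRNAs known to be lost on activation 3 higher (median 0.16, or -0.14 with library size, -0.46 with STD scaling and -0.05 with loess offsets). None of the 3 miR-29 members (median -0.08) or the 4 miR-181 members (median -0.19) was called. In the family of miR-130 and miR-301 2 of 6 were called lower, miR-130b-5p and miR-301a-5p (median -0.26), both of them minor arms. The median of all 382 was -0.02, with 8.64% called higher and 5.76% lower.

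The first base of a miRNA sits in a binding pocket of Argonaute. Among the called miRNAs with a sequence, 53.3% of the 30 higher and 15.0% of the 20 lower began with U, against 41.2% of the 306 tested. The median log2 fold change was 0.13 for the 126 tested miRNAs that begin with U, -0.04 for 72 with A, -0.10 for 76 with C and -0.21 for 32 with G. In naive cells the medians were 0.09, -0.15, -0.10 and -0.23 in the same order of bases, and at day 14 they were 0.02, 0.08, 0.00032 and -0.26, with A above U. First base, arm and level go together in these miRNAs, as 16 of the 126 with U and 16 of the 32 with G were minor arms. Among major arms of at least 1000 CPM the medians were 0.33 for 40 with U, 0.18 for 15 with A, 0.27 for 13 with C and -0.20 for 2 with G. The part of the first base was not tested, and with STD scaling the median was negative for every first base.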

How the data were processed

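The authors deposited whole-number counts per mature miRNA locus for each library, per the file headers, made from TruSeq small RNA libraries of total RNA. The labels' protocols name single-end reads where the series text names paired-end reads. The genome build was GRCm38 per the submitters' processing notes, whereas aligner, counter, miRNA database release and strand use were not given in the sources used here. Every library had 2119 entries, of which 9 named STD were left out of library sizes and tests. Of several locus entries of a miRNA the one with the highest total was kept, leaving 1966 names. For 53 of 61 multi-locus miRNAs with counts the loci agreed within 10%, so that near-identical miRNAs may share reads.

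Counts were tested with edgeR 4.0.16 (quasi-likelihood test, TMM, filterByExpr at a minimum of 10 counts) in R 4.3.3 on the 22 libraries of the WT and AGO134 KO experiment with 1 mean per group and stage. Seed families (bases 2 to 8) were summed before the same test, over miRNAs with a RefSeq sequence only (306 of the 382 tested). miR-30d-5p and miR-23b-3p had none and are in no seed sum. Arm ratios, log2 with a pseudocount of 0.5, were tested with limma 3.58.1 and a trend over the 115 hairpins with a mean of at least 5 counts in each arm. Adjusted p-values are Benjamini-Hochberg values over all features tested, and calls had an adjusted p under 0.05. Levels are CPM after TMM, those of seed sums being relative to the counts of miRNAs with a sequence. The call scripts were tested on simulated data. The miRNAs given per library were drawn from the 12 called in each direction with the smallest p and a mean of at least 10 CPM, the 12 core T cell miRNAs, and the called members of called seed families and hairpins. Not every miRNA of the last 2 groups is given per library. The libraries, lists and tests were chosen with earlier results of these data known. No pair of replicates agreed within counting error (lowest chi-square per degree of freedom 3.30), so that none was counted as a repeat. Alternatives were DESeq2 1.42.0, its size factors in edgeR, library size, STD and loess scaling, no filter and a replicate block. Others were the 8 libraries alone, all locus entries, other pseudocounts and count minimums, thinning, and leaving out each day 7 library.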

Additional observations from a re-analysis of the deposited data

Results flagged for a closer look

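Single libraries that stood far from the other 3 of their group were found in 11 of 144 groups examined. The rule flags about 1 in 20 independent groups by chance. These groups share the same 8 libraries and are mostly of called miRNAs, so that rate does not apply to the count of 11. Of the 11, 8 were KO replicate 4. It had the lowest miRNA count (125803), the fewest miRNAs detected (530), the highest share of STD counts (45.4%) and the lowest log2 ratio of miRNA to STD counts (-0.0685) of the KO group. It was also apart for miR-301a-5p (26.6 CPM), miR-3963 (12128 CPM), let-7i-5p (42124 CPM) and the log2 minor to major arm ratio of miR-15b (-3.92). The others were KO replicate 2 for miR-326-3p (81.1 CPM), and WT replicate 1 for miR-182-5p (24377 CPM) and miR-210-3p (1478 CPM).

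Among the miRNAs described, the edgeR test of the difference between stages was passed against naive cells by miR-15b-3p (-1.22), miR-148a-3p (0.73), miR-182-5p (0.93) and miR-181a-5p (-0.86), each value being the log2 effect of the knockout at day 7 minus that in naive cells. Against day 14, with the day 7 effect again first, it was passed with a negative difference by miR-455-3p (-1.47), miR-15b-3p (-1.38), miR-874-3p (-1.45) and miR-181a-5p (-0.93). It was passed with a positive difference by miR-298-5p (0.94), miR-98-5p (0.55), miR-23b-3p (0.53), miR-148a-3p (1.04), miR-99b-5p (0.74), miR-155-5p (0.64), miR-23a-3p (0.54), miR-132-5p (1.95), miR-125a-3p (1.06), miR-27a-3p (0.76), miR-7072-5p (2.84) and miR-142a-3p (1.04). Day 14 had 3 libraries per group, and no explanation of these differences was tested.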

How the results depend on the processing

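The number of miRNAs called at day 7, 55, became 129 with STD scaling, 36 with loess offsets and 35 with no filter on low counts, and ran from 24 to 59 with a library left out. The difference from naive cells was called for 9 miRNAs, for 3 with library size and 1 with STD scaling (3 to 9 with a library left out), and that from day 14 for 46, or 15 with STD scaling (35 to 51). Called seed families numbered 97 with STD scaling against 36 with TMM (19 to 38 with a library left out), and called hairpins 4 to 7 against 5. The log2 miRNA to STD difference ran from -0.35 to -0.25, and the minor arm median from -0.26 to -0.10. With STD scaling the value was negative for miR-142a-5p (-0.41), miR-142a-3p (-0.33), miR-17-5p (-0.31), let-7d-5p (-0.26), miR-24-3p (-0.25), miR-98-5p (-0.25), miR-150-5p (-0.24), miR-22-3p (-0.24), miR-674-5p (-0.22), miR-106b-3p (-0.21), let-7g-5p (-0.19), miR-17-3p (-0.19), miR-140-3p (-0.18), miR-146a-5p (-0.17), miR-3963 (-0.17), miR-93-5p (-0.17), miR-148a-3p (-0.15), miR-23b-3p (-0.15), miR-5099 (-0.15), miR-99b-5p (-0.15), miR-25-3p (-0.14), miR-27b-3p (-0.13), miR-155-5p (-0.12), miR-26a-5p (-0.11), miR-23a-3p (-0.089), let-7i-5p (-0.069), miR-182-5p (-0.046), miR-191-5p (-0.041) and miR-30e-5p (-0.040), and for the seeds UCACAGU (-0.090), GAGGUAG (-0.19), ACCCGUA (-0.15) and GUAAACA (-0.20). With library size it was negative for miR-142a-3p (-0.0083) and miR-142a-5p (-0.10), and with loess offsets for let-7d-5p (-0.0018), miR-142a-5p (-0.036) and miR-150-5p (-0.050). The cause of these changes was not tested. The GUAAACA sum left out miR-30d-5p, which had no RefSeq sequence. Same-numbered KO and WT replicates did not deviate together (correlations from -0.05 to 0.10). Whether same-numbered samples were handled together cannot be told from these values. A fit with the replicate number as a block called 59 miRNAs, 52 of them among the 55, 42 seed families and 4 hairpins. It called 11 and 37 differences from naive cells and day 14. KO depth limits scarce miRNAs, since 3 counts equal up to 26.6 CPM after TMM scaling.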
